A study of Mus musculus with 3 samples.

Results

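Ccl2, Ccl7, Ccl11, Ccl12 and Ccl8 are 5 chemokine genes that lie in this order on chromosome 11 of the mouse, all on the plus strand, with 4 intergenic spaces between them. They were chosen by name, together with the DNA that separates them, and are 5 of 22350 coding genes annotated on chromosomes 1 to 19 and X. Phosphorylation of Pol_II at serine 5 of its carboxy-terminal domain (Ser5) was measured by ChIP-Seq, in which chromatin is fixed, precipitated with an antibody and sequenced. The cells were primary bone marrow-derived macrophages of female Fvb mice (Fvb/Hsd in the study's methods) on day 7 of culture in L929-conditioned medium. One Ser5 library came from untreated macrophages, 1 from macrophages given 10 ng/ml LPS (lipopolysaccharide of Gram-negative bacteria) for 2 h, and 1 library of input DNA, chromatin without immunoprecipitation, from untreated macrophages. With 1 library per condition there was no spread between replicates and no test, and every interval in parentheses is a 95% interval that covers counting error only. No input of LPS-treated cells was used here.

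Chemokines are small secreted proteins that guide leukocytes through G protein-coupled receptors. Ccl2, Ccl7 and Ccl12 bind Ccr2 and draw inflammatory monocytes, Ccl11 (eotaxin) binds Ccr3 and draws eosinophils, and Ccl8 is best known in the mouse as a ligand of Ccr8. Macrophages are a main source of Ccl2 in inflamed tissue, where the bacterial products that Toll-like receptors sense switch on its transcription. Ser5 phosphorylation is placed on Pol_II as it starts transcription and is usually densest near the TSS.

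In the mm9 genome the cluster runs over 81229 bp, from the TSS of Ccl2 to the end of Ccl8 (chr11:81849073-81930301). Ccl2 lies at chr11:81849073-81850955, Ccl7 at chr11:81859214-81861027, Ccl11 at chr11:81871325-81876457, Ccl12 at chr11:81915347-81916902 and Ccl8 at chr11:81928687-81930301. Each member has 3 exons and 2 introns in the GENCODE M1 annotation. On the other strand the gene model Gm17268 spans all of Ccl2, and since ChIP tags do not tell which strand is transcribed, its signal and that of Ccl2 cannot be told apart.

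RefSeq (GRCm38.p6) promoters were matched for 2 of the 5 members, Ccl12 and Ccl8. Ccl2, Ccl7 and Ccl11 were not matched. The 250 bases before the TSS of both genes are printed because the pair gave different readings in these data, a Ser5 peak at the start of Ccl12 and none at Ccl8. Each run occurs once on chromosome 11 of mm9, at chr11:81915097-81915346 and chr11:81928437-81928686, directly before the annotated gene. The third sequence, from the plus strand of mm9 at chr11:81854544-81854787, is that of a peak listed only after LPS between Ccl2 and Ccl7. Capitals mark matches, on either strand, to the TATA box (TATAAA), AP-1 (TGANTCA), C/EBP (TTGCNNAA), PU.1 (GAGGAAG), the interferon-stimulated response element (ISRE) and the κB decamer.
Ccl12 promoter: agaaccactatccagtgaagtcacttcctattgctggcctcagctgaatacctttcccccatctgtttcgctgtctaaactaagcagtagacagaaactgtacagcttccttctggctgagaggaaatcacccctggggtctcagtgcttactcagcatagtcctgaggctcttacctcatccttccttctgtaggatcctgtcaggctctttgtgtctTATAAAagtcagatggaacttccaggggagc
Ccl8 promoter: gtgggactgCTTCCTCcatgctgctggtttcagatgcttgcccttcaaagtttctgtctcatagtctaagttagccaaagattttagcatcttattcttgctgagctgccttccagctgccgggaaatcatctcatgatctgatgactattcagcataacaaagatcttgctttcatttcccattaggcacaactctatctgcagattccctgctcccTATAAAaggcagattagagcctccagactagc
Peak between Ccl2 and Ccl7: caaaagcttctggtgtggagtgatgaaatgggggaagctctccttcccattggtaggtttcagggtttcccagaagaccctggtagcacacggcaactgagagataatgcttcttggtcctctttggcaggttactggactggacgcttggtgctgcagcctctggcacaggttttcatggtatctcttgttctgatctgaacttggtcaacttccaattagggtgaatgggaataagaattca
Both promoters held a TATA box, from position -31 to -26 before the TSS in Ccl12 and from -32 to -27 in Ccl8, so this box did not distinguish the pair. Of 32851 promoters of the same length, 12.4% held TATAAA. The Ccl8 promoter also held a PU.1 match on the minus strand from -241 to -235, which 10.6% of promoters did. None of the other motifs was found in the promoters, and none of the 6 in the peak, and among promoters AP-1 was held by 6.75%, the κB decamer by 7.25%, C/EBP by 9.56% and ISRE by 2.98%. Among 429 peaks of the LPS library with a length of 243 to 246 bp the shares lay between 2.33% and 9.09%.

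Untreated macrophages already carried dense Ser5 over Ccl2 and Ccl7, and both were denser after LPS. Ccl12 went from a low level to a moderate one, while Ccl11 and Ccl8 had 10 tags or fewer in each Ser5 library. Levels are given as RPKM, tags per kb of the gene body scaled to all tags of the library. This corrects for gene length only in part. Where Ser5 is densest near the TSS, a short gene gets a higher level than a long one with the same start.

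Over the gene body of Ccl2 there were 1670 tags in untreated cells, 3067 after LPS and 25 in the input, which is a level of 116, 261 and 1.76 RPKM. The ratio of LPS to untreated was 2.24 (2.11-2.38). The level of Ccl2 was 66.1 times (44.6-102) that of the input in untreated cells and 148 times (100.0-229) after LPS. In the order of all 22350 coding genes by level, Ccl2 stood at place 18 in untreated cells and at place 11 after LPS. It was thus among the most densely occupied genes in both conditions by this measure, which favours short genes.

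Ccl7 had 715 tags in untreated cells, 2435 after LPS and 25 in the input, or 51.7, 215 and 1.83 RPKM. Its ratio was 4.15 (3.82-4.52), and its place went from 56 to 13. The level of Ccl7 was below that of Ccl2 in both libraries, with the gap narrower after LPS: the ratio of Ccl7 was 1.85 times (1.67-2.06) that of Ccl2.

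Ccl12, a mouse chemokine that like Ccl2 acts on Ccr2, had 36 tags in untreated cells, 143 after LPS and 12 in the input, or 3.04, 14.7 and 1.02 RPKM. The ratio was 4.84 (3.34-7.19), and the place of Ccl12 went from 3139 to 412. Its level was 2.97 times (1.51-6.26) that of the input before LPS and 14.4 times (7.97-28.5) after it. The ratio of Ccl12 was 2.16 times (1.48-3.23) that of Ccl2 and 1.17 times (0.796-1.75) that of Ccl7, so the counts separated Ccl12 from Ccl2 but not from Ccl7.

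Over Ccl11 there were 7 tags in either Ser5 library and 21 in the input, a level of 0.179 in untreated cells, 0.218 after LPS and 0.543 in the input. The ratio was 1.22 (0.365-4.07), and against the input Ccl11 stood at 0.330 (0.118-0.805) before LPS and 0.402 (0.144-0.981) after it. Scaled instead to tags that lie in no Ser5 peak, which multiplies a ratio to the input by 1.91 before LPS and by 2.06 after it, these were 0.631 (0.226-1.54) and 0.827 (0.297-2.02), so that only under scaling to all tags did Ccl11 lie below the input. Under neither scaling was Ser5 above the background detectable at this depth over the eotaxin gene.

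Ccl8 had 4 tags in untreated cells, 10 after LPS and 9 in the input, or 0.325, 0.991 and 0.740 RPKM. The ratio of 3.05 (0.879-13.3) had an interval that included 1. After LPS Ccl8 was at 1.34 times (0.489-3.73) the input, and at 2.76 times (1.01-7.67) when scaled to tags that lie in no Ser5 peak, so whether its interval included the input level depended on the scaling. Before LPS it was at 0.440 (0.0989-1.57) and 0.841 (0.189-3.01) times the input. In the 2 kb centred on its TSS the counts ran the other way, with 8 tags before LPS and 5 after it.

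**Figure D1:**
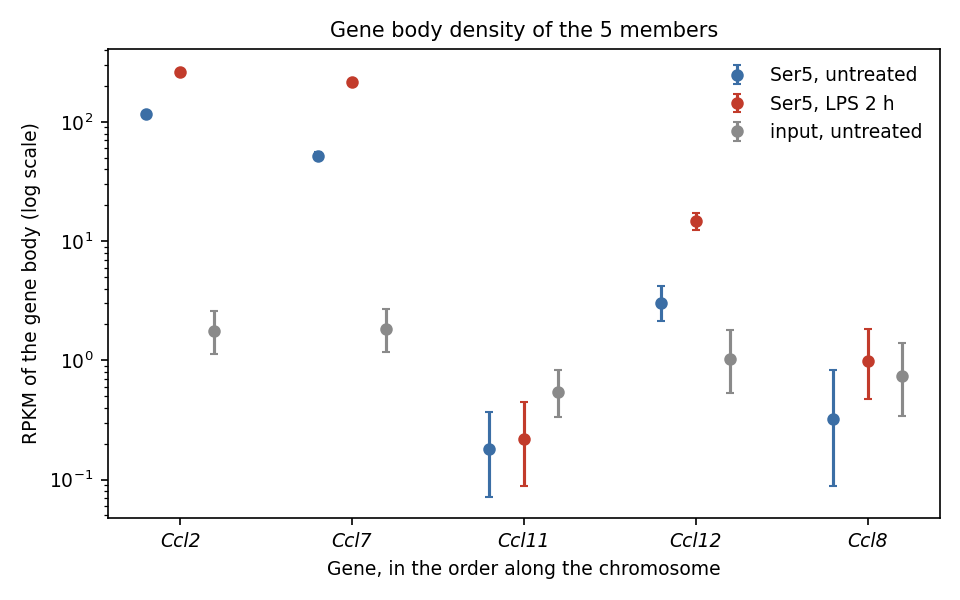
RPKM of the gene body (log axis) for the 5 members in the 3 libraries, with points for the single library of each condition and bars for the exact Poisson 95% interval. Ccl2 (116 and 261) and Ccl7 (51.7 and 215) stand far above the input, Ccl12 (3.04 and 14.7) moderately so, and with this scaling to all tags Ccl11 lies below the input and Ccl8 overlaps it, while with scaling to tags in no Ser5 peak Ccl11 overlaps it and Ccl8 after LPS is at 2.76 (1.01-7.67) times the input.

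Genes with 10 or more tags in the Ser5 libraries together were called by size, at 2 times or more. By this rule 4 of the 5 members (Ccl2, Ccl7, Ccl12 and Ccl8) were higher after LPS and 0 were lower. Across all 17386 coding genes with that many tags, 5.83% were higher and 11.3% were lower, and the median ratio was 0.874. In the order of these genes by ratio Ccl12 stood at place 178, Ccl7 at 224, Ccl8 at 413, Ccl2 at 783 and Ccl11 at 3478. The place of Ccl8 rests on 14 tags. Ccl2 had thus the highest level and the lowest ratio of the 3 genes with clear signal.

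**Figure D2:**
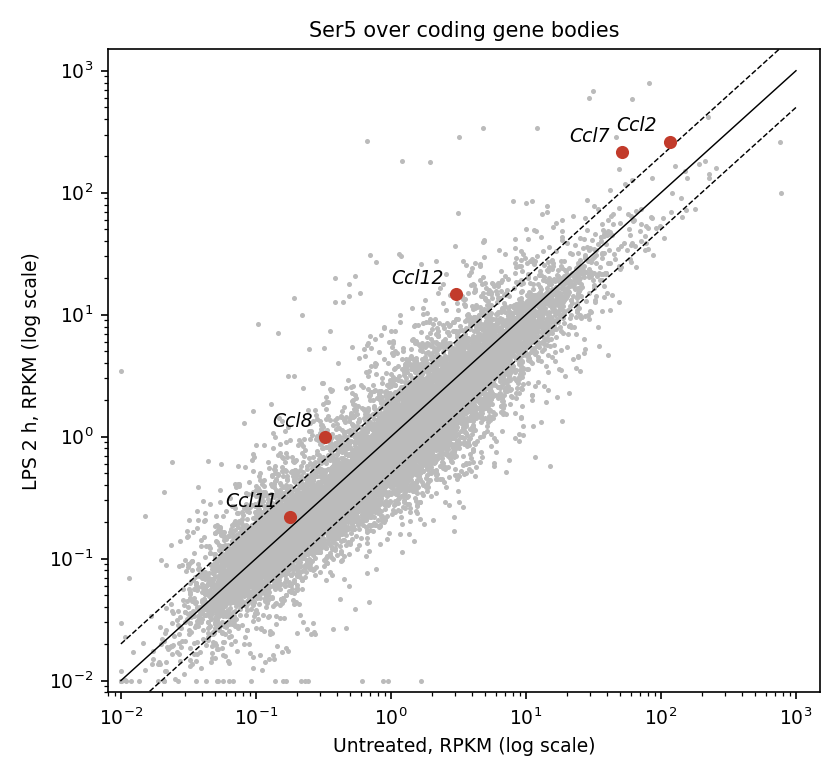
Ser5 over the bodies of 17386 coding genes (grey points) in untreated macrophages (x axis) and after LPS (y axis), both in RPKM on log axes, with values under 0.01 drawn at 0.01. The solid line marks equal levels and the dashed lines 2 times higher and lower, and of the 5 members (red) Ccl2, Ccl7, Ccl12 and Ccl8 lie above the upper dashed line and Ccl11 between the lines.

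Ser5 was not spread evenly along the genes, and the LPS to untreated ratio differed between their beginning and their remainder. Over the first 300 bp of Ccl2 the tags went from 956 to 1122 with LPS, a ratio of 1.43 (1.31-1.56). From 300 bp to the end of Ccl2 there were 714 and 1945, a ratio of 3.32 (3.05-3.62). The second ratio was 2.32 times (2.05-2.63) the first, so most of what LPS added on Ccl2 lay downstream of its promoter-proximal part.

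The share of Ccl2 body tags that fell in the first 300 bp, which make up 15.9% of the gene, was 57.2% (Wilson, 54.9-59.6) in untreated cells and 36.6% (34.9-38.3) after LPS. By exon, the ratio was 1.31 over exon 1, where 786 tags became 845, and 3.49 over exon 3, where 168 became 481. Intron 1 lay between these with a ratio of 2.77. In the first 300 bp 58.8% of the 600 possible tag starts (both strands) were in use in untreated cells and 64.5% after LPS, and with each start and strand counted once the ratio of the remainder was 1.89 times (1.58-2.26) that of the first 300 bp.

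Ccl7 showed the same order, with a smaller gap when all tags were counted. Its first 300 bp held 317 and 798 tags, a ratio of 3.07 (2.69-3.51), and the remainder 398 and 1637, a ratio of 5.01 (4.49-5.61), which was 1.63 times (1.37-1.94) the first. With each start and strand counted once it was 1.65 times (1.32-2.05), an interval that overlapped that of Ccl2 (1.58-2.26). The share of body tags in the first 300 bp went from 44.3% to 32.8%. With all tags counted, the ratio of Ccl7 was 2.14 times (1.83-2.52) that of Ccl2 over the first 300 bp, and 1.51 times (1.31-1.74) over the remainder. Before LPS 58.8% of the possible starts in the first 300 bp were in use for Ccl2 and 32.5% for Ccl7. Distinct starts there went from 353 to 387 for Ccl2 and from 195 to 366 for Ccl7. Whether the pair differed more at their starts with each start counted once was not tested.

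For Ccl12 the counts were too few to place the change: 15 and 45 tags over the first 300 bp, 21 and 98 over the remainder, with the second ratio 1.55 times (0.677-3.50) the first. Among 7697 coding genes with enough tags for this comparison the median was 1.07, and among the 419 of them that were higher after LPS it was 1.61, with 85.4% above 1. The 419 were picked by their ratio over the whole body, which includes the remainder, so this choice can by itself favour values above 1. Ccl7 and Ccl12 lay near the median of those 419 genes, and 94 of the 419 exceeded the value of Ccl2.

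**Figure D3:**
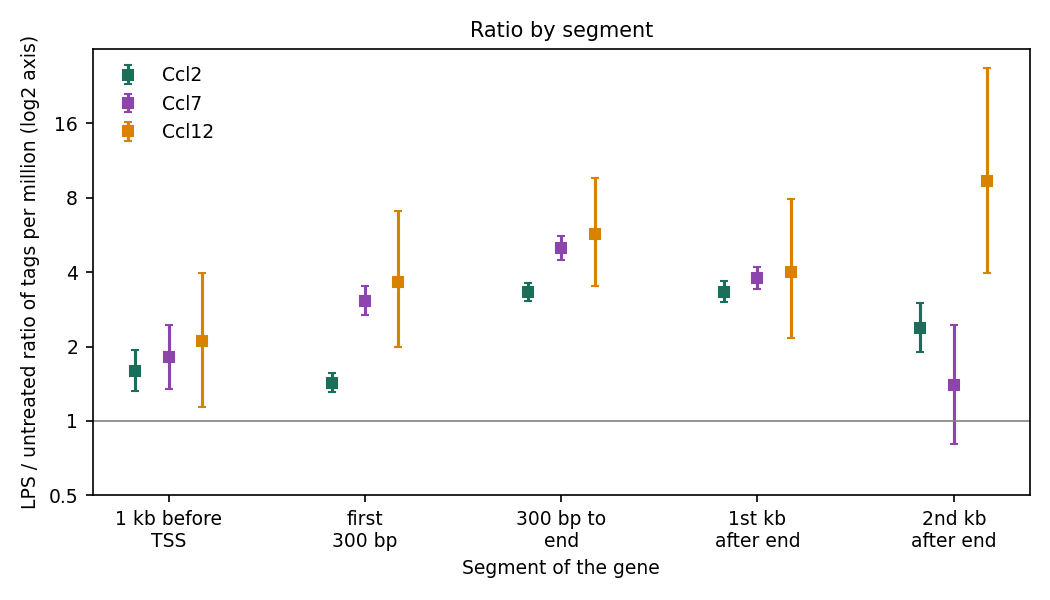
Ratio of LPS to untreated, each scaled to the tags of its library (log2 axis), in 5 segments of Ccl2, Ccl7 and Ccl12, with bars for the 95% counting interval. Ccl2 lies at 1.43 over its first 300 bp and at 3.32 over the remainder, and Ccl7 lies above Ccl2 in both segments.

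Ser5 continued past the annotated ends of the genes. In the first kb after the end of Ccl2 there were 569 tags in untreated cells, 1556 after LPS and 21 in the input, a ratio of 3.33 (3.03-3.68). The second kb held 119 and 232 tags, and the third kb 3 and 23 against 11 in the input. Past Ccl7 the first kb held 527 and 1639 tags, a ratio of 3.79 (3.43-4.19), and the second kb 27 and 31 against 11 in the input. In this first kb the ratios of Ccl7 and Ccl2 were 1.14 times (0.989-1.31) apart, less than over their bodies.

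In bins of 100 bp, Ccl2 had its densest bin just after the TSS in both libraries, with 483 and 502 tags. A trough lay before the annotated end, where the bin centred 1750 bp from the TSS held 7 tags in untreated cells and 23 after LPS. Beyond the end the tags went up again, to 96 and 228 in the bin centred 2150 bp from the TSS. Ccl7 had the same shape, with 6 and 29 tags in the lowest bins near its end and 108 and 244 in the bin centred 2450 bp from its TSS. In the lowest bins of both genes the input also held 0 tags, with 25 over each whole gene body. Whether the trough reflects poor recovery of this DNA was not tested. In the stretch from 300 bp to the end, sequence that occurs more than once in the genome made up 0% of Ccl7 and, at the tag length of the LPS library, 1.33% of Ccl2. Past Ccl12 the bin centred 2550 bp from its TSS held 5 and 12 tags. These bins were picked after their values were seen.

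**Figure D4:**
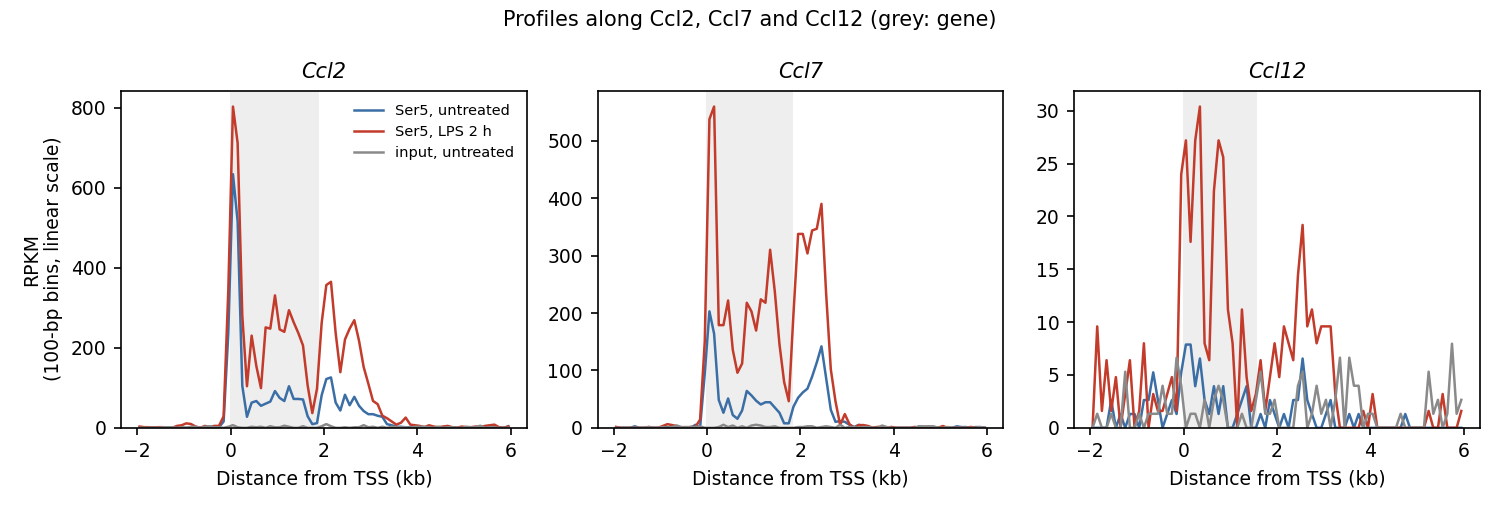
RPKM in 100-bp bins from 2 kb before to 6 kb after the TSS of Ccl2, Ccl7 and Ccl12 in the 3 libraries (linear axes, a different range in each panel), with the gene shaded. Ccl2 and Ccl7 show a maximum at the TSS, a trough before the annotated end and a second rise beyond it, in untreated cells and after LPS. The input also held 0 tags in the lowest bins of these troughs.

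At the promoters, taken as 1 kb to either side of the TSS, Ccl2 had 1481 tags before LPS and 2268 after it, a ratio of 1.87 (1.75-1.99), below the limit of 2, which became 2.01 when scaled to tags that lie in no Ser5 peak. Ccl7 had 599 and 1647, a ratio of 3.35 (3.05-3.69), and Ccl12 had 48 and 158, a ratio of 4.01 (2.89-5.66). Ccl11 had 3 tags and 1 tag in this window, against 6 in the input, and no ratio can be read from them.

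The authors' peak lists, called in each library by itself, held 4 peaks in the cluster in untreated cells and 8 after LPS, covering 8.86% and 14.4% of it. In untreated cells 1 peak lay over Ccl2 (chr11:81848869-81852511), 2 over Ccl7 (chr11:81858995-81860926 and chr11:81860982-81862559) and 1 over the start of Ccl12 (chr11:81915272-81915517). After LPS the Ccl12 peak widened from 246 to 1585 bp (chr11:81915134-81916718), and its score, minus 10 times the log10 of the p-value of the peak caller, was 863 against 55.6. The peaks of Ccl2 and Ccl7 had 1 and the same score in both lists, which 749 peaks of the untreated list and 739 of the LPS list share, so it does not rank them. No peak lay over Ccl11 or Ccl8 in either list.

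After LPS 5 peaks lay wholly in the spaces between members, and none did in untreated cells. The second untreated peak of Ccl7 (chr11:81860982-81862559) touched the end of the gene, however, and ran 1532 bp past it. After LPS the single Ccl7 peak (chr11:81858878-81862301) ran 1274 bp past that end. The strongest, with a score of 353, began 278 bp past the end of Ccl12 (chr11:81917180-81918569) and held 19 tags before LPS, 83 after it and 17 in the input. Between Ccl2 and Ccl7 there were 2, the peak printed above with 3 and 13 tags and its neighbour (chr11:81855016-81855423) with 11 and 24. The other two lay in the long space before Ccl12, where chr11:81901648-81901893 had 2 and 13 tags and chr11:81913527-81913769, 1578 bp before the TSS of Ccl12, had 0 and 11. These small intergenic peaks thus rest on few tags.

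Counted whole, the space from Ccl2 to Ccl7 (8258 bp) held 793 tags in untreated cells, 1998 after LPS and 92 in the input, a ratio of 3.07 (2.83-3.34). From Ccl7 to Ccl11 the counts were 571, 1681 and 69, a ratio of 3.59 (3.26-3.95), but without the 1 kb next to each gene 42 tags remained in either library, a ratio of 1.22 (0.775-1.92). Nearly all of the LPS difference in that space was thus the signal just past Ccl7. The space from Ccl11 to Ccl12, the longest with 38889 bp, held 87 and 179 tags against 292 in the input, and that from Ccl12 to Ccl8 held 35 and 105 against 92, with ratios of 2.51 (1.93-3.28) and 3.66 (2.47-5.52).

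Further from the genes, from 3 kb past one to 1 kb before the next, the tags from Ccl2 to Ccl7 went from 24 to 71 with LPS, against 39 in the input. The corresponding part before Ccl12 had 67 and 142 tags against 265 in the input. That is 0.250 (0.188-0.328) times the input before LPS and 0.646 (0.523-0.795) after it, but with scaling to tags in no Ser5 peak 0.478 (0.360-0.628) and 1.33 (1.08-1.64), so the direction against the input after LPS turned with the scaling. In the remaining 2 spaces there were 13 and 8, and 8 and 9 tags. Of all tags in the cluster, 3918 in untreated cells and 9625 after LPS, the bodies of Ccl2 and Ccl7 held 60.9% and 57.2%, and the 2 kb after each of them a further 31.7% and 35.9%. Ser5 in the cluster was therefore concentrated at its Ccl2 end in both conditions.

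**Figure D5:**
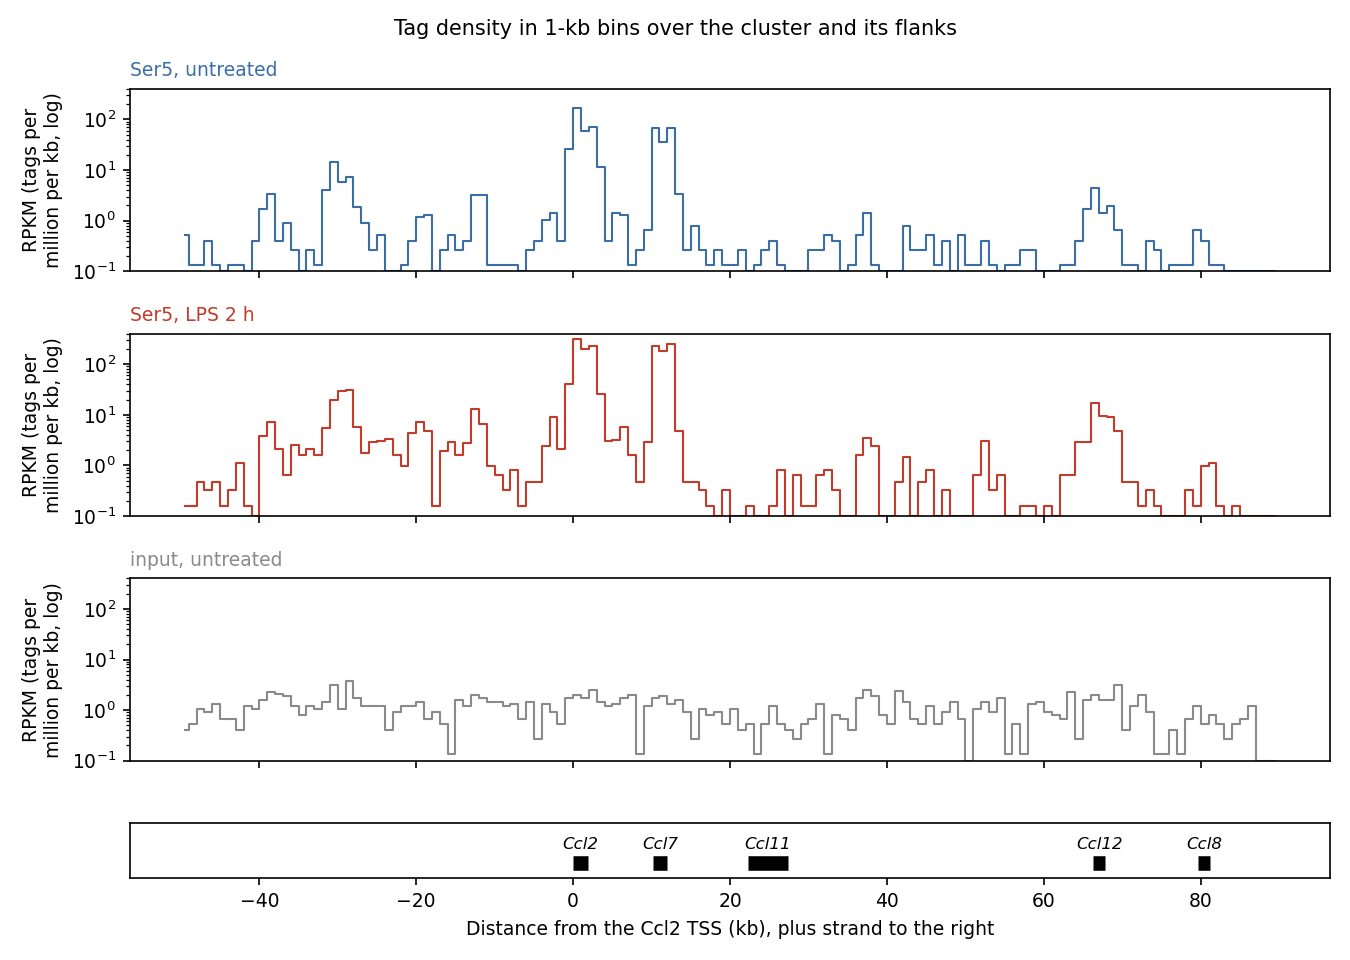
RPKM in 1-kb bins against distance from the Ccl2 TSS, for untreated Ser5, Ser5 after LPS and input (log axes, bins under 0.1 drawn at 0.1), with the 5 genes as black boxes. Both Ser5 tracks are highest over Ccl2 and Ccl7 and lower over Ccl12, while Ccl11 and Ccl8 held 10 tags or fewer in each.

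On the Ccl2 side, apart from Gm17268 which spans Ccl2, the nearest annotated gene is Gm11419, a non-coding RNA gene, 46801 bp away. This flank held 639 tags in untreated cells, 1460 after LPS and 447 in the input, a ratio of 2.78 (2.54-3.06). It includes the 1 kb before the TSS of Ccl2, which alone held 197, 258 and 13 tags, a ratio of 1.60 (1.32-1.93). The ratio of the flank without this promoter part was not computed. The flank held 7 peaks before LPS and 10 after it. The strongest peak after LPS, with a score of 1791, lay at chr11:81817408-81820119, 28954 bp before the TSS of Ccl2, and overlapped peaks of untreated cells. Several peaks of this flank were listed only after LPS. The nearest to Ccl2 ended 784 bp before its TSS (chr11:81847982-81848289) and held 1 and 17 tags. The next ended 2099 bp before it (chr11:81845828-81846974). On the Ccl8 side the 59857 bp before Ccl1 held 48 and 70 tags against 271 in the input, with 0 peaks and 1, so the signal outside the cluster lay on the side of Ccl2.

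Other chemokines were taken from a list of ligands outside the cluster and of the receptors of its members. Of 13 other CC ligands found, 10 had enough tags, of which 6 were higher after LPS, 0 lower and 4 neither, with a median ratio of 2.83 against 0.874 over all genes. The highest ratio was that of Ccl5, which draws T cells, with 24 and 7803 tags and a ratio of 396 (266-619), and the lowest that of Ccl25, a chemokine of thymus and gut, with 392 and 187 tags and 0.581 (0.486-0.694). Of 12 CXC and other ligands with enough tags 8 were higher, 1 lower and 3 neither. Over all coding genes 5.83% were higher and 11.3% lower. Some of these calls rest on few tags. Ratio intervals included 1 for Cxcl5 (5 and 11 tags) and Cxcl15 (2 and 8), and among the CC ligands called higher for Ccl17 (9 and 17). Cxcl15 stayed below the input after LPS, at 0.150 against 0.778 RPKM. Cxcl10, an interferon-induced ligand of Cxcr3, had 55 and 4019 tags and a ratio of 89.1 (68.3-118), and Cxcl14 had 74 and 13 and a ratio of 0.214 (0.109-0.389). Cxcl3 had 0 tags before LPS and 43 after it.

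Against these 28 other ligands, none had a higher level than Ccl2 in untreated cells, and only Ccl3 was above Ccl7. After LPS 6 of them (Ccl3, Ccl4, Ccl5, Cxcl1, Cxcl2 and Cxcl10) stood above both Ccl2 and Ccl7. Ccl3 reached 587 RPKM and Ccl4 681. Before LPS these 2 were at 60.7 and 31.6. Ccl5 and Cxcl10 were at 0.665 and 3.21 before LPS and at 263 and 286 after it. That pair was named for high ratios, a choice that favours a low level before LPS.

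Of 8 receptors and decoy receptors 6 had enough tags. Ccr2, the receptor of Ccl2, Ccl7 and Ccl12, had 43 tags before LPS, 8 after it and 95 in the input, a ratio of 0.227 (0.0921-0.488). Its level was below the input already before LPS, at 0.486 against 1.09 RPKM, so this ratio compares 2 values under the background. In untreated cells 7 of the 8 receptors were at or below the input, and 2 of 8 with scaling to tags in no Ser5 peak. Ccrl2, a non-signalling chemoattractant receptor, had 22 and 463 tags and a ratio of 25.6 (16.7-41.3). Ccr1 (1.15), Ccr3 (1.22) and the scavenger Ccbp2 (0.516) met neither limit.

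By likeness of level in both Ser5 libraries, taken as the Euclidean distance of log2 levels over these 2 values, the coding genes nearest to Ccl2 were Actb at 0.671, Gm10382 at 0.866 and Hist1h1e at 0.933. Nearest to Ccl7 were Nfkbia at 0.440, which encodes the NF-κB inhibitor IκBα, Cd14 at 0.471, the LPS co-receptor, and Junb at 0.790. Ccl12 had closer neighbours, Birc3 at 0.0870, Ube2l6 at 0.138 and Irak2 at 0.167.

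The label of the cells was checked against markers. Of 8 macrophage markers 7 were matched, and all 7 were above the input in untreated cells, with a summed level of 222 before LPS and 226 after it against 7.93 in the input. After LPS 2 of them were higher (Cd14 and Emr1) and 5 lower. Cd14 went from 48.9 to 156 RPKM and so made up most of the sum after LPS. Itgam was then below the input, at 0.444 against 0.725 RPKM, though not with scaling to tags in no Ser5 peak. The 7 fibroblast markers, whose cells can also make Ccl2 and Ccl11, were at or below the input in both libraries, with summed levels of 1.17, 1.23 and 2.77, and with scaling to tags in no Ser5 peak 5 of the 7 were, with summed levels of 0.810 and 0.915 times the input. At or below the input in untreated cells were also 3 of 4 T cell markers, 3 of 4 B cell markers and 5 of 5 neutrophil markers, the last 3 of 5 with the other scaling. After LPS these counts were 3, 3 and 4, and with the other scaling 3, 2 and 4. The neutrophil marker Camp (11 and 29 tags) was called higher and stood at 2.23 against 0.893 RPKM in the input. The B cell marker Ms4a1 (13 and 34 tags) was also called higher, at 0.340 against 0.953. All 6 genes of a list of LPS response (Tnf, Il1b, Il6, Nfkbia, Ptgs2 and Cxcl10) were higher in the library labelled LPS, with a median ratio of 38.6. In such bulk libraries a change in the number of cells that use a gene and a change in Ser5 per cell cannot be told apart.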

How the data were processed

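The authors aligned the trimmed reads to mm9 with Bowtie, kept reads with a single match, and called peaks with MACS (p-value limit 1e-05), each Ser5 library by itself with the input as control. Versions are not given in the sources used here. The deposited tag files list the position and strand of each tag, and the score deposited with each peak is minus 10 times log10 of p. The tag lengths of the Ser5 libraries in the files are the reverse of those in the study's methods. The labels name LPS alone for the stimulated library, whereas a figure of the study adds γIFN. The libraries were assigned by their labels.

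Tags on chromosomes 1 to 19 and X, 7616771 for untreated Ser5, 6249819 after LPS and 7533308 for the input, were counted by their 5′ end over GENCODE M1 genes, duplicates included. Distinct positions made up 81.4% to 84.5% of the tags. Intervals at the 95% level are exact Poisson for levels, exact conditional on the sum for ratios, conditional for ratios of ratios, and Wilson for shares. They cover counting error only, as PCR copies are not independent molecules. Where a library had 0 tags, 0.5 was used in calls by size. No test was possible with 1 library per condition. The genes named were the 5 members, the ligands of highest and lowest ratio in each class, the receptors with at least 10 tags (1 of which is not reported here), the 3 coding genes nearest to each member with at least 50 tags, and the nearest genes on both sides. Ccl3, Ccl4, Ccl17, Cxcl1, Cxcl2, Cxcl3, Cxcl5 and Cxcl15 were named after their values were seen. Of the lists Ccl28, Cxcl11 and Spi1 were not matched to a coding gene of that symbol. Members and lists were chosen with earlier results of these data known. Python 3.11.15, numpy 2.4.6, pandas 2.3.3, scipy 1.17.1, numba 0.67.0 and matplotlib 3.10.9 were used, and counts and intervals were checked on simulated data.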

Additional observations from a re-analysis of the deposited data

How the results depend on the processing

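Of 113 values recomputed under another setting 89 moved by less than their counting interval (counts of genes or peaks by less than 1.5 times) and 24 moved further. Of 91 recomputed ratios 1 crossed 1, that of LPS to untreated over Ccl11, from 1.22 to 0.904 with 1 tag per position and strand, a ratio whose interval included 1 in both. These 91 leave out the ratios of spaces and TSS windows to the input. Some of those crossed 1 with scaling to tags in no Ser5 peak. An example is the space from Ccl11 to Ccl12 after LPS, which went from 0.739 to 1.52 times the input. With 1 tag per position and strand the LPS to untreated ratio was 3.35 over the Ccl7 body, 2.80 at its TSS, 2.56 from Ccl2 to Ccl7 and 2.78 from Ccl7 to Ccl11. The remainder of Ccl2 against its first 300 bp then gave 1.89, and the ratios to input were 40.6 before LPS and 87.5 after it for Ccl2, and 77.4 after it for Ccl7. Scaling to tags that lie in no Ser5 peak multiplies each ratio of LPS to untreated by 1.08, which put Ccl2 at 2.41 over its body and at 2.01, past the limit of 2, at its TSS. Under that scaling the ratios to input were 126 and 305 for Ccl2, 54.1 and 242 for Ccl7, and 29.6 after LPS for Ccl12. The intervals of Ccl11, 0.631 (0.226-1.54) and 0.827 (0.297-2.02), then no longer lay below 1, and that of Ccl8 after LPS, 2.76 (1.01-7.67), no longer included it. Within 300 bp of the TSS the ratios were 1.44 for Ccl2 and 2.79 for Ccl7, and Ccl11 gave no value, having 0 tags before LPS. From 300 bp to the end they were 3.32 and 5.01. Without the 1 kb next to each gene they were 2.72 from Ccl2 to Ccl7 and 1.22 from Ccl7 to Ccl11. At a score of at least 100 there were 5 peaks in the cluster after LPS. At a limit of 3 times 429 coding genes were higher and 605 lower, and 3 members were higher (Ccl7, Ccl12 and, on 14 tags, Ccl8). With at least 50 tags required and a limit of 2 times, 712 coding genes were higher and 1495 lower. The members higher were then Ccl2, Ccl7 and Ccl12. The causes were not tested. Moving tags 75 bp downstream moved no value further than its interval, but put Ccl8 at 4.06 with an interval above 1, as did leaving out its first 300 bp. The settings for the remainder of a gene against its first 300 bp, for the count of members, and for spaces and lists against the input, were chosen after seeing the data. No paired analysis was possible because each condition had 1 library, and for the same reason no library could be left out. Depth limits Ccl11 and Ccl8, whose bodies held between 4 and 10 Ser5 tags per library.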
